A study of Mus musculus with 4 samples.

Results

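The synaptic vesicle and ribbon synapse genes are 38 genes that encode the proteins of regulated vesicle release: the transporters that load glutamate into vesicles, vesicle membrane proteins, calcium sensors, complexins, SNARE proteins, Rab3 proteins and scaffolds of the active zone and ribbon. They were chosen by name, and all 38 were found by their Ensembl identifiers among the 14924 genes of the expression table. RNA was sequenced from whole lenses of 1-month-old mice lacking S100A4, a small calcium-binding protein, in all tissues (S100A4-/-), and from lenses of their littermate wild type (WT) controls. Both genotypes were on a C57BL/6J background. Each group has 2 libraries, and each library was made from 6 to 12 pooled lenses, so that the spread between libraries is a spread between pools. The libraries hold 81602367 and 74108017 reads (S100A4-/-) and 70253985 and 68038158 reads (WT) assigned to genes. The comparison asks how transcripts of the release machinery differ in a lens without S100A4.

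At a chemical synapse, vesicles filled with transmitter by a transporter dock at an active zone, are primed by SNARE proteins on the vesicle and the plasma membrane, and fuse when a synaptotagmin senses calcium. Photoreceptors and bipolar cells of the retina use ribbon synapses, in which an electron-dense ribbon tethers vesicles for continuous release and complexins 3 and 4 take the place of the brain forms. The lens is made of an epithelium and fiber cells and holds no synapses, although its cells, like all cells, use related SNARE proteins for general membrane traffic.

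Values are normalized read counts, that is, reads per gene divided by 1 size factor per library and not by gene length, and 1 read is worth between 0.856 and 1.09 units. S100a4 itself stood at 14.6 and 18.2 in the S100A4-/- libraries and at 14420 and 14385 in the WT libraries, which matches the labelled genotypes. A gene was called when it differed 2-fold or more with an adjusted p of 0.05 or less in limma, fitted to all 14780 genes that passed the filter on low values. All 38 synaptic genes passed that filter, a value of 10 in 1 library or more, but Slc17a8 and Syt2 reached it only in S100A4-/- libraries. Of the 38, 12 were higher in S100A4-/- lenses, 0 were lower and 26 were not called, where 3.65% of all genes tested were called higher and 0.0744% lower. At an unadjusted p under 0.05, 21 of the 38 were higher and 0 lower, where 11% of all genes were higher and 6.71% lower. DESeq2 and edgeR, run on reads recovered from the values, called the same 12 genes higher, against 2.82% and 3.76% of all genes, and 0 lower. With limma on 3 libraries, 6 were called higher without S100A4-/- library 1 and 7 without S100A4-/- library 2, where 1.14% and 1.42% of all genes were. In limma without the trend of variance with expression 6 were called higher, where 1.18% of all genes were. Both S100A4-/- libraries lay above both WT libraries for 24 of the 38 genes, where 23.7% of all genes did so, and below them for 2, where 23.2% did so. The median log2 fold change was 0.54 over the 38 genes and -0.005 over all genes tested. Positions below span whole genes in GRCm38, as GENCODE M21 gives them. In bulk tissue, more cells of a type and more RNA per cell cannot be told apart.

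**Figure D1:**
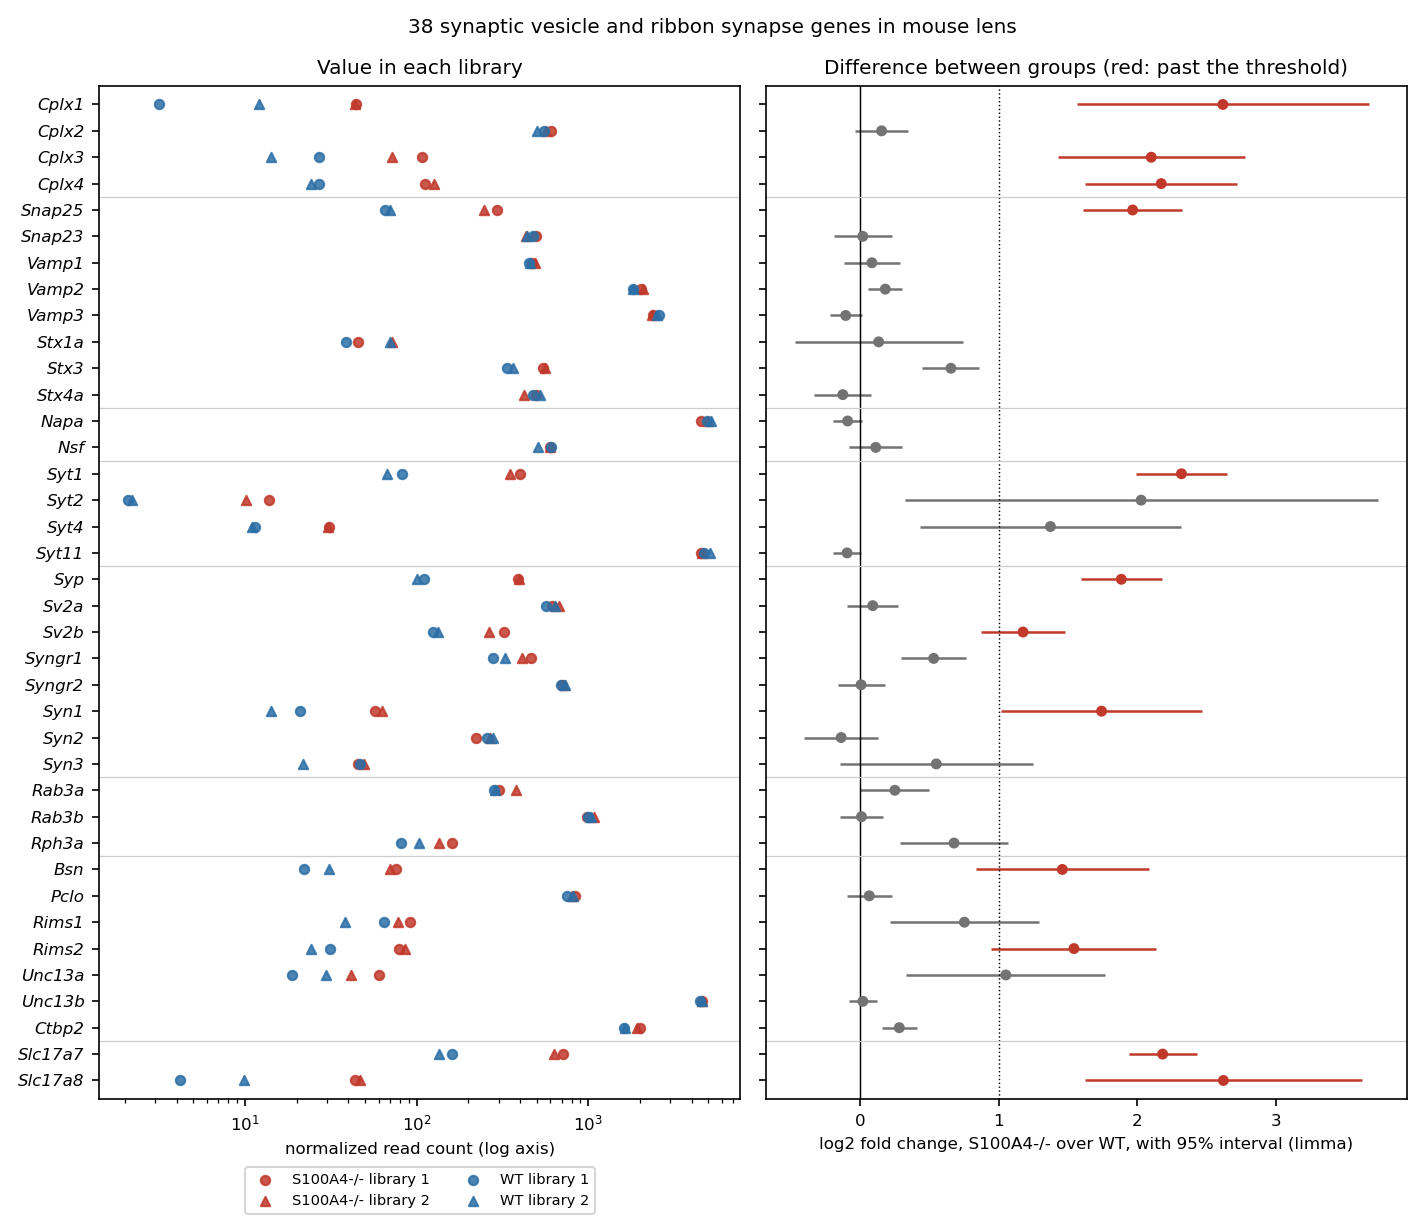
Normalized read counts (left, log axis) of the 38 genes in each of the 4 libraries, and log2 fold changes of S100A4-/- over WT with 95% intervals from limma (right), grouped by role. The 12 genes past the threshold are in red on the right, and all of them have both S100A4-/- libraries above both WT libraries; the dotted line marks 2-fold.

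The 2 vesicular glutamate transporters among the 38 genes, Slc17a7 and Slc17a8, were higher in S100A4-/- lenses. The other one, Slc17a6 (VGLUT2), is outside the 38; it had 2 and 11 reads in S100A4-/- and 2 and 0 reads in WT libraries and was not called (limma, adjusted p = 0.526). Slc17a7 (ENSMUSG00000070570, chr7:45163949-45176142) encodes VGLUT1, which loads glutamate into vesicles of photoreceptors, bipolar cells and many cortical neurons. Slc17a7 stood at 708 and 632 in S100A4-/- lenses and at 159.8 and 135 in WT lenses. The lowest S100A4-/- library was thus well above the highest WT library, with a mean of 670.3 ± 53.6 (SD, n = 2) against 147 ± 17.7 and a log2 fold change of 2.18 ± 0.12 (SE, limma, adjusted p = 5.56e-17). Slc17a8 (ENSMUSG00000019935, chr10:89574020-89621253) encodes VGLUT3, the transporter of inner hair cells and of a class of amacrine cells. Slc17a8 stood at 43.7 and 46.6 against 4.18 and 9.85, where WT rests on 4 and 9 reads. The log2 fold change of Slc17a8 was 2.62 ± 0.49 (SE, limma, adjusted p = 2.3e-04), and the groups did not overlap. The gene passed the filter only through the group where it is high, and with no filter on low values its adjusted p was 2.71e-04 (limma). Slc17a8 was not called without S100A4-/- library 1 (limma, adjusted p = 0.116), without S100A4-/- library 2 (0.113) or in limma without the trend (0.134).

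Among 8 vesicle membrane proteins and synapsins, 3 were higher (Syp, Sv2b and Syn1) and 5 were not called. Syp (ENSMUSG00000031144, chrX:7638471-7653256) encodes synaptophysin, an abundant membrane protein of the synaptic vesicle. Syp stood at 391 and 393 in S100A4-/- lenses and at 111 and 101 in WT lenses, so that the libraries of a group lay close together and the groups far apart. The log2 fold change of Syp was 1.88 ± 0.14 (SE, limma, adjusted p = 4.57e-13). The gene shares 16.8% of its exonic bases with Gm14703 on the opposite strand, and reads from both cannot be told apart there unless the counting used strand, which was not stated. Sv2b (ENSMUSG00000053025, chr7:75114894-75309262) encodes a vesicle glycoprotein that is abundant in photoreceptor terminals. Sv2b stood at 325 and 262 against 125 and 132, with a log2 fold change of 1.17 ± 0.15 (SE, limma, adjusted p = 2.34e-07). It was the called gene nearest to the 2-fold threshold, and it missed the adjusted p in limma without the trend (0.0832). Syn1 (ENSMUSG00000037217, chrX:20860511-20921004) encodes synapsin I, which tethers vesicles to the cytoskeleton at conventional synapses and is largely absent from ribbon synapses. Syn1 stood at 57.4 and 62.8 against 20.9 and 14.2, a log2 fold change of 1.74 ± 0.36 (SE, limma, adjusted p = 7.58e-04). The groups of Syn1 did not overlap, yet the call was lost without S100A4-/- library 1 (limma, adjusted p = 0.126), without S100A4-/- library 2 (0.142) and without the trend (0.0941).

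The other 5 genes of this group were not called. Syngr1, the neuronal synaptogyrin, stood at 466 and 408 against 278 and 328. All S100A4-/- values were above the WT values and its adjusted p passed, but its log2 fold change of 0.53 ± 0.12 (SE, limma, adjusted p = 0.0015) was under 2-fold. Syngr2, the broadly expressed synaptogyrin, had a log2 fold change of 0.005 ± 0.084 with means of 714 and 711. Sv2a, the SV2 form found at nearly all synapses, had means of 645 and 607 and a log2 fold change of 0.09 ± 0.09. Syn2 stood at 244 against 267 on average and Syn3 at 47.5 against 34.4, and the libraries of the groups overlapped for both. Syn3 shares 14.1% of its exonic bases with Timp3 on the opposite strand.

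Of the 4 synaptotagmins among the 38 genes, Syt1 was higher and 3 were not called. Of 8 further synaptotagmins in the table, read with the wider release machinery, 0 were called by limma, DESeq2 or edgeR, and Syt7, Syt9 and Syt13 had an unadjusted p under 0.05 in limma. Syt1 (ENSMUSG00000035864, chr10:108497650-109010982) encodes synaptotagmin 1, the calcium sensor for fast synchronous release. Syt1 stood at 399 and 351 in S100A4-/- lenses and at 82.5 and 66.8 in WT lenses, and no value of one group came near the other. Its log2 fold change was 2.32 ± 0.16 (SE, limma, adjusted p = 4.16e-14). Syt2, another fast sensor, rested on 16 and 10 reads in S100A4-/- libraries and on 2 reads in each WT library, a ratio of 5.64 with a 95% exact interval for counting error of 1.96 to 22.3. The log2 fold change of Syt2 was 2.03 ± 0.84 (SE, limma, adjusted p = 0.172), which did not pass. Syt4, which does not trigger fast release, stood at 30.8 and 30.4 against 11.5 and 10.9. Its groups did not overlap, and its log2 fold change of 1.37 ± 0.46 missed the threshold (SE, limma, adjusted p = 0.0693) and passed in limma without the trend (0.0301). Syt4 shares 14.5% of its exonic bases with Gm26658 on the opposite strand. Syt11, a synaptotagmin that does not bind calcium, stood at 4567 and 4627 against 4720 and 5116, one of only 2 of the 38 genes with both S100A4-/- libraries below both WT libraries. Its log2 fold change of -0.10 ± 0.05 did not pass (SE, limma, adjusted p = 0.329).

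The sequence just before the transcription start is shown for Syp, Sv2b and Syn1 and for the complexin gene Cplx3, called genes whose windows hold searched letters before the transcribed bases. The windows come from RefSeq (GRCm38.p6), run 5′ to 3′ on the strand of the gene and stop before the outermost start that GENCODE M21 gives. Capitals mark the searched letters, on either strand. The letters TAATCC, which read GGATTA on the opposite strand, form a core bound by homeodomain factors of photoreceptors. The letters TGCTGA, which on the opposite strand read TCAGCA, are part of the element bound by Maf-type factors. TGACGTCA is the cyclic AMP response element. TTCAGCACC is part of the element bound by the neuronal repressor REST, and the Maf-type letters lie within it on the opposite strand. The windows of Syp at chrX:7638330-7638470 (plus strand), Sv2b at chr7:75309263-75309512 (minus strand), Syn1 at chrX:20921005-20921168 (minus strand) and Cplx3 at chr9:57606282-57606531 (minus strand) were these.
Syp: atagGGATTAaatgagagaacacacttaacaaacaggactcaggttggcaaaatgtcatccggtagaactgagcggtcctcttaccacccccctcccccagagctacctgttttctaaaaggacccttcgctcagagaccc
Sv2b: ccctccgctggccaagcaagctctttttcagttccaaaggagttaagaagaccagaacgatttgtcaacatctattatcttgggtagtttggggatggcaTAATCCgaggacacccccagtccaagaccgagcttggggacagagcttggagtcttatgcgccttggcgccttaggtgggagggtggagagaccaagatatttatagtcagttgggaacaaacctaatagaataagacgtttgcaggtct
Syn1: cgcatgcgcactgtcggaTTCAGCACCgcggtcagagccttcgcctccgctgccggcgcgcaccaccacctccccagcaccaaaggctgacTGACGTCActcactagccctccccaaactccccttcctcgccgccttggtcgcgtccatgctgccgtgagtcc
Cplx3: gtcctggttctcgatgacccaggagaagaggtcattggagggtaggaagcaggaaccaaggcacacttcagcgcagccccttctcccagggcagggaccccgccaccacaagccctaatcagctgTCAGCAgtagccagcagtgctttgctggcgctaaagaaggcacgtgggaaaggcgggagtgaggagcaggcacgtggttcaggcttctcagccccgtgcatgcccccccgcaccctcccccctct
The letters TAATCC stood in the 250 bases before the start in 3 of 14 windows of called genes (1 of Syp and 2 of Sv2b), in 1 of 28 windows of genes that were not called (Ctbp2) and in 6.3% of all 32851 RefSeq windows. TGCTGA stood in 2 of the 14 (Cplx3 and Syn1), 1 of the 28 (Napa) and 16.1% of all. TGACGTCA and TTCAGCACC both stood in the window of Syn1 and in no other of the 42, against 1.5% and 0.3% of all windows. GGGCGG, the GC box bound by Sp1-type factors, stood in 4 of the 14 windows of called genes and in 18 of the 28 of the others, against 32.7% of all. The ratio of observed to expected CpG was above 0.6 in 2 of 14 windows of called genes (Bsn and Syn1), in 14 of 28 of the others and in 34.0% of all windows. In some of the 42 windows, the bases after the start were not found near the beginning of a GENCODE M21 transcript of the gene. Among them were 1 of the 2 Sv2b windows with TAATCC and the windows of Cplx1 and Slc17a7 with GGGCGG. Some genes had more than 1 window, 31 of the 38 genes had a window, and a match of letters is a description of the sequence and not a site of binding.

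Of the 4 complexins, small proteins that clamp and then promote SNARE-driven fusion, 3 were higher and Cplx2 was not called. Cplx3 (ENSMUSG00000039714, chr9:57599992-57606281) and Cplx4 (ENSMUSG00000024519) encode the complexins of retinal ribbon synapses. Cplx3 stood at 107 and 71.96 in S100A4-/- lenses and at 27.1 and 14.2 in WT lenses, with a log2 fold change of 2.10 ± 0.33 (SE, limma, adjusted p = 1.5e-05). Cplx4 stood at 111 and 127 against 27.1 and 24.1, with a log2 fold change of 2.17 ± 0.27 (SE, limma, adjusted p = 1.33e-07). Cplx1 (ENSMUSG00000033615, chr5:108518554-108550024), a complexin of conventional synapses, stood at 44.5 and 43.6 against 3.13 and 12.0, with a log2 fold change of 2.62 ± 0.52 (SE, limma, adjusted p = 4.87e-04). For all 3 the groups did not overlap, but the WT values of Cplx1 rest on 3 and 11 reads. Cplx2, the complexin with the most reads in the lens, stood at 605 and 565 against 550.3 and 501, a log2 fold change of 0.15 ± 0.09 (SE, limma, adjusted p = 0.419). Without S100A4-/- library 1 Cplx1 (limma, adjusted p = 0.176) and Cplx3 (0.142) were not called, and without S100A4-/- library 2 Cplx1 was not (0.158). In limma without the trend neither Cplx1 (adjusted p = 0.248) nor Cplx3 (0.184) passed, whereas Cplx4 was called in all 4 fits that left out a library.

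Of the 8 SNARE proteins, Snap25 was higher and 7 were not called. Snap25 (ENSMUSG00000027273, chr2:136713453-136782428) encodes the plasma membrane SNARE of neurons. Snap25 stood at 292 and 246 in S100A4-/- lenses and at 65.8 and 70.1 in WT lenses, with no overlap and a log2 fold change of 1.97 ± 0.18 (SE, limma, adjusted p = 4.62e-11). Its paralog Snap23, which serves fusion in non-neuronal cells, stood at 499 and 433 against 479 and 440.1, and its groups overlapped. Stx3 encodes syntaxin 3, the syntaxin that ribbon synapses use in place of syntaxin 1. Stx3 stood at 546 and 558 against 337 and 365, so that both S100A4-/- libraries were above both WT libraries. The log2 fold change of Stx3, 0.65 ± 0.10 (SE, limma, adjusted p = 9.99e-06), passed on p and not on fold. Stx1a, the syntaxin of conventional synapses, stood at 45.4 and 71.96 against 38.6 and 70.1, and the spread within each group exceeded the difference between them. Stx4a, the plasma membrane syntaxin of many tissues, had means of 459.7 and 501 with overlapping groups.

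The VAMPs, SNAREs of the vesicle side, were not called. Vamp2, the main vesicle SNARE of neurons, stood at 2038 and 2090 against 1816 and 1828, above WT in both libraries but at a log2 fold change of 0.18 ± 0.06 (SE, limma, adjusted p = 0.0676). Vamp1, its close relative, had means of 480.3 and 453. Vamp3, the VAMP of general recycling traffic, stood at 2384 and 2345 against 2574 and 2517, below WT in both libraries, at a log2 fold change of -0.11 ± 0.06 (SE, limma, adjusted p = 0.335). Napa and Nsf encode alpha-SNAP and NSF, which take spent SNARE complexes apart in every cell. Napa had means of 4761 and 5070.0 and Nsf of 599 and 556, and the libraries of the groups overlapped for both. Rab3a and Rab3b encode vesicle GTPases, and Rph3a encodes rabphilin, a Rab3 effector. Rab3a stood at 303 and 377 against 281 and 288, with a log2 fold change of 0.25 ± 0.12 (SE, limma, adjusted p = 0.284), and Rab3b had means of 1027 and 1020 with overlapping groups. Rph3a stood at 160.1 and 135 against 81.4 and 103, without overlap, at a log2 fold change of 0.68 ± 0.19 that passed on p and not on fold (SE, limma, adjusted p = 0.0224).

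Of the 7 scaffold and priming genes of the active zone and ribbon, Bsn and Rims2 were higher and 5 were not called. Bsn (ENSMUSG00000032589, chr9:108096022-108190384) encodes Bassoon, the giant scaffold that anchors the ribbon to the photoreceptor membrane. Bsn stood at 76.2 and 69.9 in S100A4-/- lenses and at 21.9 and 30.7 in WT lenses, with a log2 fold change of 1.46 ± 0.31 (SE, limma, adjusted p = 1.09e-03). Rims2 (ENSMUSG00000037386, chr15:39198261-39684372) encodes RIM2, which holds calcium channels at the active zone. Rims2 stood at 78.8 and 85.1 against 31.3 and 24.1, with a log2 fold change of 1.54 ± 0.29 (SE, limma, adjusted p = 2.75e-04). The groups of Bsn and of Rims2 did not overlap. Without S100A4-/- library 1 neither Bsn (limma, adjusted p = 0.17) nor Rims2 (0.104) was called, nor were they without S100A4-/- library 2 (0.122 and 0.114) or in limma without the trend (0.104 and 0.0687).

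Rims1 and Unc13a lay near the threshold. Rims1, the paralog of Rims2, stood at 91.6 and 78.0 against 64.7 and 38.3, a log2 fold change of 0.75 ± 0.27 (SE, limma, adjusted p = 0.0864). Rims1 passed without WT library 1 (log2 fold change 1.12, limma, adjusted p = 0.00558). Unc13a encodes Munc13-1, the priming factor of most central synapses. Unc13a stood at 59.9 and 41.6 against 18.8 and 29.6, a log2 fold change of 1.05 ± 0.36 (SE, limma, adjusted p = 0.0693), and it passed without WT library 2 (1.36, limma, adjusted p = 0.0166). Unc13b, the Munc13 paralog with the most reads, had means of 4589 and 4532, and Pclo, which encodes the Bassoon-like scaffold Piccolo, had means of 819 and 784, both with overlapping groups. Ctbp2 encodes the transcriptional corepressor CtBP2 and, from another promoter, RIBEYE, the core protein of the ribbon. Ctbp2 stood at 2006 and 1934 against 1607 and 1635, with no overlap and a log2 fold change of 0.28 ± 0.06 (SE, limma, adjusted p = 0.00177). The gene-level count cannot tell RIBEYE from CtBP2 transcripts.

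The levels of called and uncalled synaptic genes in WT lenses are given as a description, with no test, and the split was set after the values were seen. The 12 called genes had WT values between 7.02 and 147, with a median of 27, and the 26 others a median of 480.2. Per kilobase of exon, the median level of the called genes was 7.98 in WT and 32.7 in S100A4-/- lenses, and that of the others 86.7 and 103, where the median over all genes tested was 68.0 in WT. Among the 22 synaptic genes under the WT median of all genes (308), 12 were called higher, or 54.5%, where 7% of all 7390 genes under it were. Among the 16 at or over it, 0 were called by limma, by DESeq2 or by edgeR, where limma called 0.298% of all genes there higher. At an unadjusted p under 0.05 in limma 3 of the 16 (18.8%) were higher and 0 lower, where 5.76% of all genes there were higher and 10.3% lower. Summed over the 12 called genes, the normalized read count was 2634 and 2392 in S100A4-/- libraries and 680 and 634 in WT libraries. The difference of their means, 1856 units, made up most of the 2397 units by which the sum over all 38 genes was higher.

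**Figure D2:**
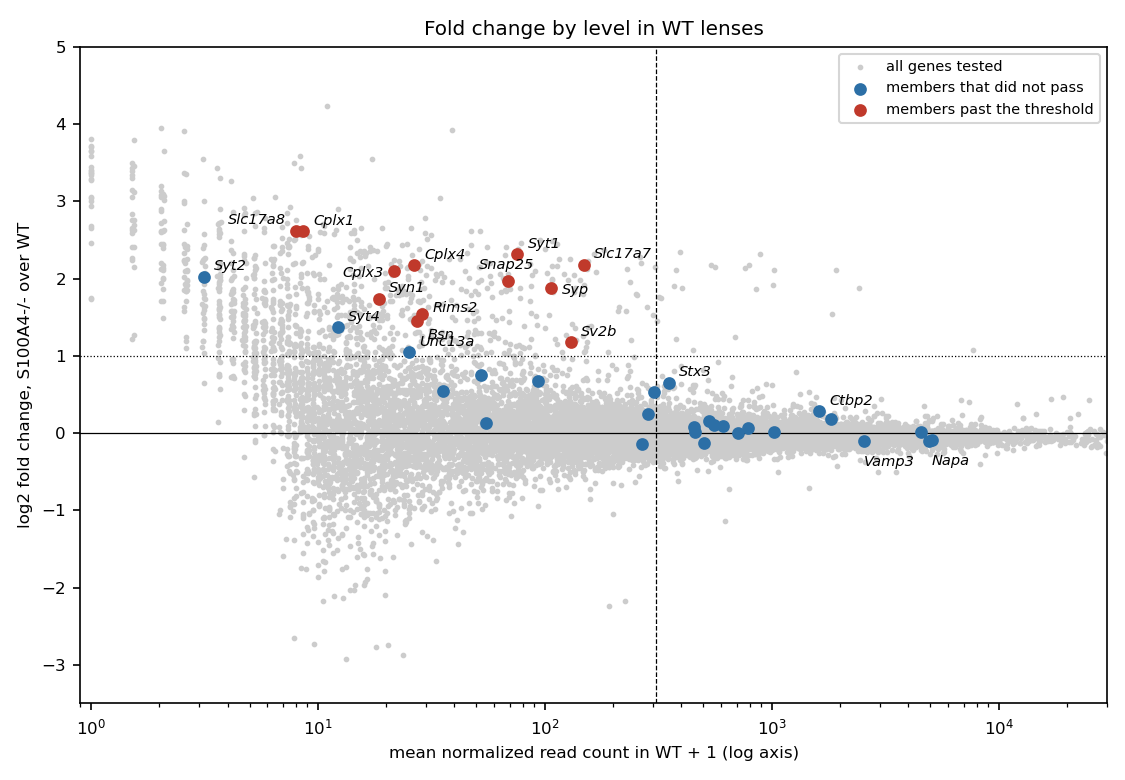
Log2 fold change of S100A4-/- over WT against the mean normalized read count in WT plus 1 (log axis), for all genes tested (grey) and the 38 synaptic genes (blue and red); 86 genes, S100a4 among them, lie outside the axes. The 12 called genes (red) lie left of the dashed line at the WT median, and the 16 synaptic genes right of it lie at or below a log2 fold change of 0.65.

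The paralogs among the 38 genes were also compared by their share of the summed level per kilobase of exon. Further paralogs outside the 38, such as Slc17a6, Sv2c, Rims3 and 8 synaptotagmins, are not in these sums. A gene called higher beside an uncalled paralog takes a larger share almost by construction, so the shares are a description of relative levels and no further evidence. Among the complexins, Cplx2 took 81.9% and 81.7% of the family in WT lenses and 51.8% and 51.1% in S100A4-/- lenses, while Cplx4 went from 10.3% and 10% to 24.2% and 29.1%. Snap25 took 8.0% and 9.1% of the sum of Snap25 and Snap23 in WT lenses and 27.0% and 26.5% in S100A4-/- lenses. Syn1 took 13.6% and 9.5% of the synapsins in WT and 33.1% and 31.2% in S100A4-/- lenses. Bsn took 3.9% and 5.0% of the sum of Bsn and Pclo in WT and 11.4% and 10.9% in S100A4-/- lenses. Sv2b took 10.8% and 10.2% of the sum of Sv2a and Sv2b in WT and 22.5% and 17.8% in S100A4-/- lenses, and Rims2 25.5% and 30.8% of the sum of Rims1 and Rims2 in WT and 37.9% and 43.6% in S100A4-/- lenses. The share of Slc17a8 in the sum of Slc17a7 and Slc17a8, 2.9% and 7.7% in WT and 6.6% and 7.8% in S100A4-/- lenses, overlapped between groups.

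**Figure D3:**
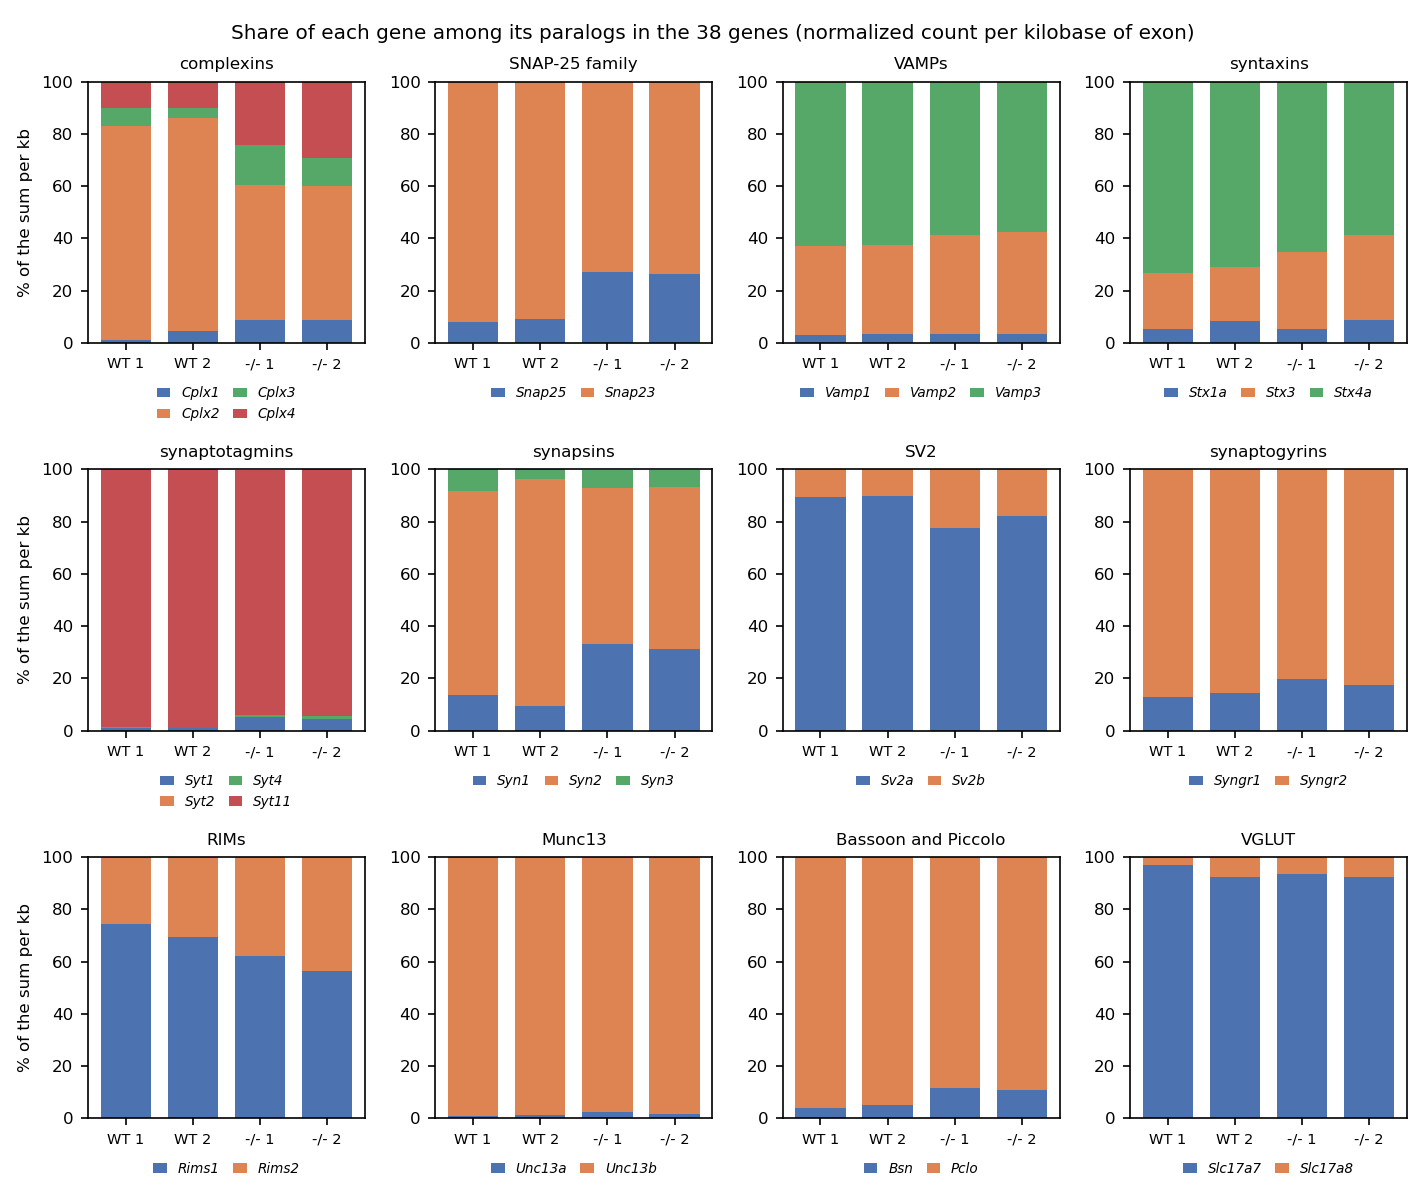
Share of each gene in the summed normalized read count per kilobase of exon of its paralogs among the 38 genes, in percent, in the 2 WT and 2 S100A4-/- libraries. Cplx2 falls from 81.8% to 51.5% of the complexins on average, and Snap25 rises from 8.6% to 26.7% of its pair.

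The wider release machinery was read from a list of 76 other genes, 72 of them in the table. Of these, 14 were higher and 0 lower in S100A4-/- lenses by limma, at a median log2 fold change of 0.19. DESeq2 called 12 higher and 0 lower, edgeR 13 and 0, and 23 were higher and 5 lower at an unadjusted p under 0.05 in limma, where 11% and 6.71% of all genes were. Without S100A4-/- library 1 limma called 4 of them higher and without S100A4-/- library 2 it called 5, and in both cases Cabp4, Cacna1f, Cadps and Rab3c were not called (adjusted p between 0.0517 and 0.179). The 6 with the largest rise include Cacna1f, the pore of the photoreceptor calcium channel, and Cabp4, the calcium-binding protein that tunes it. Cabp4 stood at 43.7 and 42.6 against 9.40 and 3.28, a log2 fold change of 2.73 ± 0.52 (SE, limma, adjusted p = 2.77e-04). Cacna1f stood at 117 and 157 against 20.9 and 47.1, a log2 fold change of 2.08 ± 0.29 (SE, limma, adjusted p = 9.99e-07). Cabp4 and Rab3c passed the filter on low values only through the S100A4-/- libraries, and with no filter their adjusted p was 3.27e-04 and 0.002 (limma). The other 4 were Cadps, a priming factor of dense-core vesicles (log2 fold change 2.60), Rab3c, a further Rab3 protein (2.06), Sncb, beta-synuclein (1.87), and Dnm1, the neuronal dynamin that pinches off vesicles (1.86). By role, 3 of 20 priming and fusion partners, 3 of 17 vesicle membrane and loading genes, 5 of 20 active zone and ribbon calcium channel genes and 3 of 15 endocytosis genes were higher. The most abundant gene of each of these groups was not called, at log2 fold changes of -0.19 (Snap47), 0.03 (Dnajc5), 0.008 (Ctbp1) and -0.003 (Amph). Slc18a2, the vesicular monoamine transporter, was singled out after its values were seen: it stood at 782 and 719 against 1114 and 1014, below WT in both libraries, and its log2 fold change of -0.50 ± 0.08 (SE, limma, adjusted p = 1.36e-05) was under 2-fold. Sv2c, also picked after its values were seen, had 3 and 10 reads in S100A4-/- and 0 in both WT libraries, and no fold is given.

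Markers of retinal and other cells moved in the same libraries, and their part in the result was not tested. All 12 rod markers were higher: their summed normalized read count was 9598 and 9345 in S100A4-/- libraries and 2410 and 2541 in WT libraries, a ratio of the means of 3.83. The ratio of the sums was 1.09 over all 38 synaptic genes, whose sum is led by abundant uncalled genes such as Napa and Syt11, 1.02 over the 26 uncalled ones and 3.83 over the 12 called ones, which were picked for being higher. The most abundant rod marker, Gnat1 (rod transducin), stood at 3333 ± 8.23 (SD, n = 2) against 759 ± 32.3, so that rod transcripts were present in WT lenses too. Of 10 cone markers 5 were higher, with sums of 504 and 477 against 271 and 286. Of 11 bipolar cell markers 3 were higher (4217 and 3932 against 3341 and 3214), of 6 amacrine cell markers 5 (2654 and 2637 against 1811 and 1919), of 7 ganglion cell markers 3 (485 and 499.7 against 285 and 266) and of 2 horizontal cell markers 0, with 1 at an unadjusted p under 0.05 (891 and 845 against 590.0 and 649). The most abundant genes of those lists, Thrb, Prkca, Tfap2a, Pou4f1 and Sall3, were not called. Sall3, a horizontal cell marker, passed on p and not on fold (log2 fold change 0.48 ± 0.08, SE, limma, adjusted p = 8.15e-05). So did the bipolar cell markers Trpm1 (0.92, limma, adjusted p = 1.08e-10) and Gpr179 (0.69, 0.0015). Tfap2a made up most of the amacrine cell sum (1544 and 1524 on average), and the 5 called amacrine cell markers were Gad1, Gad2, Slc6a9, Tfap2b and Calb2. Of 8 Müller glia markers 4 were higher (27605 and 28766 against 24993 and 25236), although the most abundant, Spon1, was not called at 18178 and 19400 on average. Of 8 pigment cell markers 6 were higher (1744 and 1758 against 447 and 572). Ttr was the most abundant of them in WT lenses (211 and 253), and Dct in S100A4-/- lenses (581 and 582, against 31.3 and 44.9 in WT). Of 7 microglia and macrophage markers 4 were higher (304 and 257 against 105 and 89.8, most abundant Csf1r). Among 6 endothelial markers 1, Kdr, was higher (sums of 207 and 215 against 109 and 138). Tek was the most abundant endothelial marker in WT lenses (49.1 and 59.1), and Kdr in S100A4-/- lenses (74.5 and 60.8, against 9.40 and 9.85 in WT). Of 8 markers of neurons in general 1 was higher, with sums of 33350 and 35270 against 39139 and 38163 that were mostly Uchl1 (32449 and 36947 on average). Of the markers counted, 13 passed the filter on low values only through S100A4-/- libraries, 6 of them called higher with the filter and without it. These counts are from limma, and DESeq2 called 0 cone markers, 1 bipolar cell marker, 5 pigment cell markers and 1 microglia and macrophage marker higher, where edgeR called 5, 2, 6 and 4. None of the markers measured was at 0 in both WT libraries, and every gene of the table has at least 10 reads over the 4 libraries. The lists named 12 bipolar, 10 amacrine, 9 ganglion, 4 horizontal and 10 pigment cell markers, 9 markers of neurons in general and 8 of microglia and macrophages. Those without a value, Chat, Th, Pou4f2 and Lhx1 among them, were not analysed here and are not in the counts. Lens markers were led by Cryaa, the gene with the highest value of the whole table, and 0 of the 10 were called by limma, DESeq2 or edgeR, with 1 lower at an unadjusted p under 0.05.

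**Figure D4:**
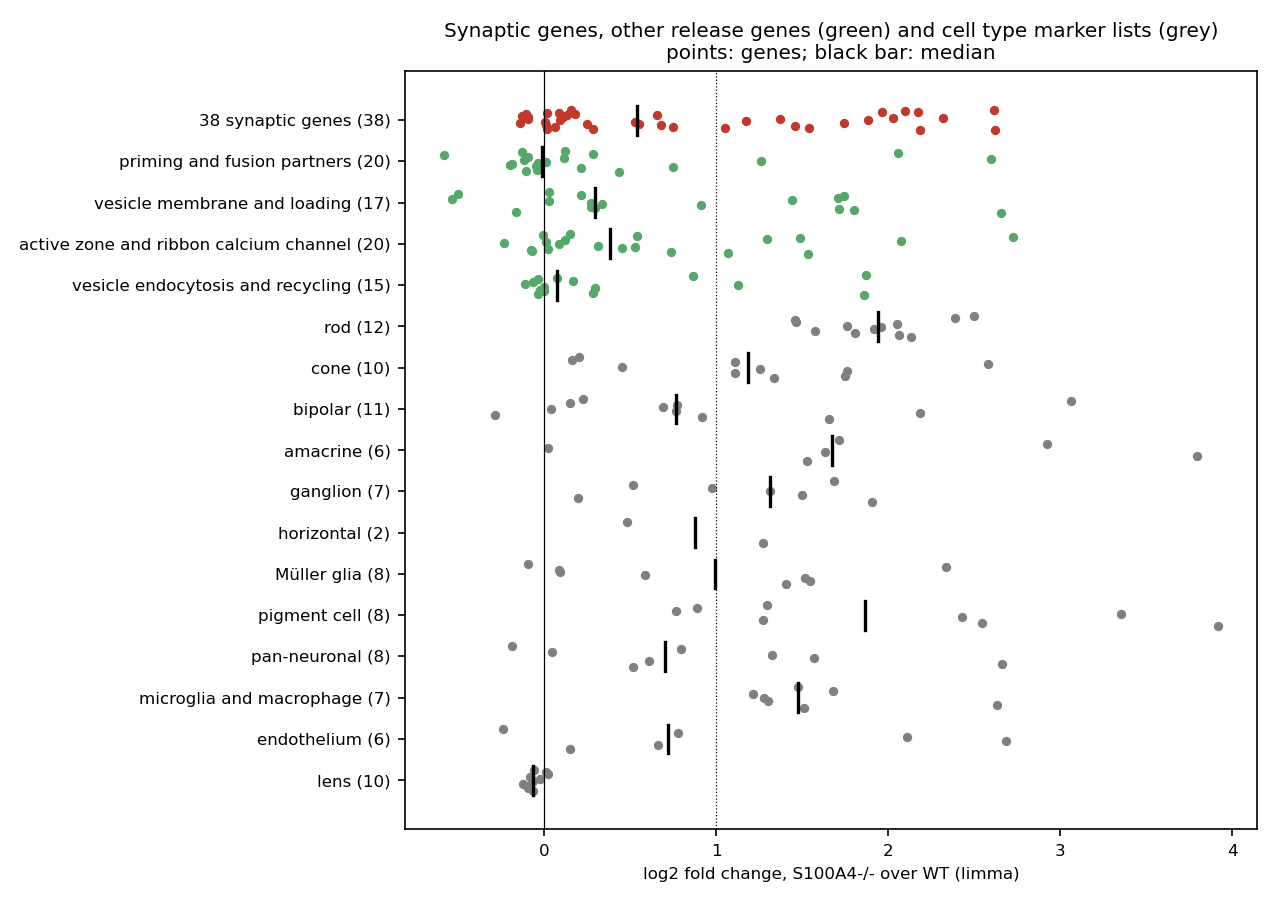
Log2 fold change of S100A4-/- over WT (limma) of each gene in the 38 synaptic genes (red), the 4 groups of other release genes (green) and the 12 cell type marker lists (grey), with the number of genes in brackets and the median as a black bar. The median is 0.54 for the synaptic genes, 1.94 for rod markers and -0.07 for lens markers; the dotted line marks 2-fold.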

How the data were processed

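RNA-seq was done by the authors on pooled lenses of 2 S100A4-/- and 2 WT samples. Per the paper's methods and the labels, poly(A) RNA went into stranded libraries, reads were trimmed with Trim Galore, mapped with STAR to GRCm38, counted per gene with HTSeq and scaled with DESeq2; tool versions and the strand setting of the counting are not given in the sources used here. The deposited values are a signal, normalized counts in which each library's counts were divided by 1 size factor. Each value was a whole multiple of the value of 1 read within 0.01 (100.0% of values in every library), so whole reads were recovered.

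Values were tested as log2(value + 1) with limma 3.58.1 (R 4.3.3) with a trend of variance with expression, for the 14780 genes that reached a value of 10 in 1 library or more (144 left out), and p-values were adjusted over all of them by Benjamini-Hochberg. Fold changes are on that scale, and for low genes they depend on the value added: that of Cplx1 was 2.72 with 0.5 added and 2.06 with 5. They can lie above or below those of the other tools (Cplx1 2.62, DESeq2 2.55, edgeR 2.53; Syt2 2.03, DESeq2 2.48, edgeR 2.42). DESeq2 1.42.0 and edgeR 4.0.16 (quasi-likelihood) on the recovered reads, other pseudocounts, filters and scalings, a replicate block and leaving out each library were alternatives. The code was tested on simulated data. Symbols, exon lengths (merged exons) and positions came from GENCODE M21, which matched 14782 of 14924 identifiers. All 38 genes are named or counted. Of other lists, the 6 largest rises among called release genes and the most abundant gene of each group, by genotype where these differ, are named. A few further genes of these lists were named after their values were seen. The genes, families, lists, motifs, CpG limit and split at the WT median were chosen with earlier results of these data known. Nothing in the labels says that pools came from separate litters, so p-values speak of these pools and not of litters. With 2 pools per group, they rest largely on a variance borrowed from genes of like expression. In limma without that trend, the adjusted p was 0.0352 for Slc17a7, 0.0381 for Syt1, 0.0301 for Syp and 0.0355 for Snap25. The very small p-values of these genes are thus no measure of the spread between the pools alone. Counts differed between the 2 pools of each group beyond sampling noise on average (chi-square per gene with mean 48.7 and median 1.36 for S100A4-/-, mean 15.6 and median 1.06 for WT). Intervals on reads cover counting error only.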

Additional observations from a re-analysis of the deposited data

How the results depend on the processing

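The 12 called synaptic genes kept their call under both other pseudocounts, no filter on low values, TMM factors, equal totals, quantile normalization, DESeq2, edgeR and the replicate block. Limma without the trend called 6 synaptic genes higher, 5 of them among the 12, with 174 genes higher and 7 lower over the table and 4 of the other release genes higher. A filter on a mean of at least 50 removed Bsn, Cplx1, Slc17a8 and Syn1 from the test and left 8 called synaptic genes, at a median log2 fold change of 0.17, with 281 genes higher and 6 lower over the table and 8 of the other release genes higher. On adjusted p alone, 16 synaptic genes, 831 genes higher and 197 lower over the table and 2 lower among the other release genes passed. DESeq2 called 6 genes lower over the table and quantile normalization 23. The median over the synaptic genes was 0.49 by edgeR, 0.495 by DESeq2 and 0.41 after quantile normalization.

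Leaving out 1 library gave between 6 and 13 synaptic genes higher (6 without S100A4-/- library 1, 7 without library 2), between 168 and 546 genes higher and between 4 and 13 lower over the table, between 4 and 14 of the other release genes higher, and a median over the synaptic genes between 0.46 and 0.55. In these fits a group with 1 library is assumed to vary like the other. Genes near 0 changed sign: Stx1a with quantile normalization (-0.10), and with 1 library left out Snap23 (-0.086 to 0.12), Stx1a (-0.29 to 0.55), Syngr2 (-0.033 to 0.044), Rab3b (-0.057 to 0.074) and Nsf (-0.012 to 0.23). None of them passed in any fit, and the cause was not tested.

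The replicate numbers do not pair the samples: the deviations of libraries with the same number from their group means correlated at 0.012. With the replicate number as a block, 13 synaptic genes were higher, the 12 and Unc13a (limma, adjusted p = 0.0412).

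Bsn, Cplx1, Rims2, Slc17a8 and Syn1 lost their call without either S100A4-/- library and Cplx3 without library 1. Their log2 fold changes in those fits were between 1.40 (Bsn) and 2.67 (Slc17a8), against 1.46 and 2.62 with all libraries, and none of the 12 lost its call without a WT library. Syt2, Cplx1 and Slc17a8 have 2 to 11 reads in each WT library. The 95% exact intervals of their ratios, for counting error only, were 1.96 to 22.3 for Syt2, 3.35 to 11.2 for Cplx1 and 3.62 to 12.6 for Slc17a8, so that at this depth the one for Syt2 includes 2-fold and the others lie above it.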
